A study of Mus musculus with 3 samples.

Results

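The antioxidant response run by the transcription factor NRF2 was followed through 10 genes, listed by name, of the 32285 genes counted, and each of the 10 had UMIs in each of the 3 libraries. They are Nfe2l2, which encodes NRF2 itself, and the NRF2-responsive genes Srxn1, Hmox1, Nqo1, Gclm, Gclc, Txnrd1, Slc7a11, Prdx1 and Osgin1. The data are droplet single-cell RNA-seq counts (10x Genomics 3′ chemistry) of CD31- CD45- cells, sorted from the stromal vascular fraction, which is what remains of fat after collagenase digestion and removal of floating adipocytes. There were 3 replicate libraries in 1 group, WT, from the subcutaneous inguinal adipose depot of male C57BL/6J mice that were 8 weeks old. No mouse carried a mutation or received a treatment, so each comparison is between cells of the same libraries. The libraries are called mouse 1, mouse 2 and mouse 3 by their replicate numbers, since the study used 3 mice as biological replicates.

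In resting cells KEAP1, an adaptor of a CUL3 ubiquitin ligase, marks NRF2 for degradation. Oxidants and electrophiles modify cysteines of KEAP1, NRF2 accumulates, pairs with small MAF proteins in the nucleus and binds antioxidant response elements (AREs) of genes for glutathione and thioredoxin chemistry, while BACH1 occupies the same elements as a repressor. AREs contain a sequence close to the AP-1 site, and Nfe2l2 mRNA levels need not follow NRF2 protein, which was not measured.

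The cells were divided by UMIs of a few genes that are not among the 10. After keeping cells with more than 500 genes and under 5% mitochondrial UMIs, a progenitor had at least 3 UMIs of Dpp4 and Pi16 with at most 1 of Icam1 and Fabp4. A preadipocyte had at least 4 UMIs of Icam1 and Fabp4 with at most 1 of Dpp4. A regulatory cell (Clec11a+ Fmo2+) had at least 1 UMI of each of those genes with at most 1 of Fabp4 and at most 1 of Dpp4. The progenitor gate held 7399, 3169 and 9273 cells in mouse 1, mouse 2 and mouse 3, the preadipocyte gate 2278, 1394 and 1889, and the regulatory gate 270, 384 and 404, of 12984, 6414 and 15179 cells kept. UMIs were summed per mouse and gate, and levels are given as UMIs per 1000000 UMIs of the sum (CPM). Progenitors with at least 2 UMIs of Nr4a3, Fosl1 and Nptx2, genes of the immediate response to stimulation, are called activated, and those with 0 resting. These names describe the UMIs used and not a measured state of the cells.

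The whole libraries held 79801002 to 100846072 UMIs, and mouse 2 had the fewest cells and the deepest ones (median 12192.5 UMIs, against 7392.5 in mouse 1 and 6667 in mouse 3). Between 52 and 81 cell barcodes were shared by a pair of libraries. Markers not used in the gates followed them: 6 progenitor markers summed to 3967 to 5836 CPM in progenitors and to at most 965 CPM in the other gates, 7 preadipocyte markers to 4534 to 5386 CPM in preadipocytes and to at most 1953 CPM elsewhere, and 5 regulatory cell markers to 2963 to 3473 CPM in regulatory cells and to at most 1440 CPM elsewhere. Of cells the sort should remove, 12 leukocyte markers summed to at most 17.6 CPM in the 9 class sums, with Cd3e at 0 in progenitors and Adgre1, Cd3e and S100a8 at 0 in regulatory cells. The 8 endothelial markers summed to 140 to 169 CPM in progenitors, 41.1 to 72.3 CPM in preadipocytes and 21.9 to 27.4 CPM in regulatory cells. Gene by gene, however, 5 of the 7 endothelial markers tested (Pecam1, Cdh5, Emcn, Egfl7 and Esam) were higher in preadipocytes than in progenitors and Tek was lower. The 8 mural markers summed to 24.2 to 34.8 CPM in progenitors and 71.98 to 112 CPM in preadipocytes, with 6 higher and 2 lower, and the 5 Schwann cell markers to 3.05 to 5.86 CPM and 26.2 to 42.5 CPM, with all 3 that were tested higher. The part of these markers in the results was not tested.

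The promoter sequences are shown because the elements that NRF2 and AP-1 proteins recognise can be searched in them. RefSeq promoters (build GRCm38.p6) were found for 8 of the 10 genes, the 250 bases before each transcription start were searched on both strands, and the ARE core was written as TGACNNNGC and the AP-1 type element as TGANTCA. The match is in capitals, with 10 flanking bases on each side, on the strand of the gene.
Srxn1, AP-1 type element, chr2:152105412-152105438, plus strand: tcggagggccTGAGTCAccacgctgtg
Srxn1, AP-1 type element, chr2:152105469-152105495, plus strand: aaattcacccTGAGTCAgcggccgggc
Osgin1, AP-1 type element, chr8:119437040-119437066, plus strand: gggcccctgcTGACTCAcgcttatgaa
Prdx1, AP-1 type element, chr4:116685352-116685378, plus strand: aacgaggaaaTGACTCAaagggcagtg
Prdx1, ARE core read on the other strand, chr4:116685456-116685484, plus strand: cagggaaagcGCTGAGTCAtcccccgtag
Gclm, ARE core read on the other strand, chr3:122245413-122245441, plus strand: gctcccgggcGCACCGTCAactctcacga
Nfe2l2, ARE core, chr2:75704885-75704913, minus strand: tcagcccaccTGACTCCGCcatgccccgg
Txnrd1, ARE core read on the other strand, chr10:82859104-82859132, plus strand: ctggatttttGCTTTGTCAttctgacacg

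The 2 Srxn1 matches lay 102 and 45 bases before the start, and both read TGAGTCA. With the gc that follows it, the second differs from TGACNNNGC only by a G in place of the C. The Osgin1 match, read on the other strand with its neighbouring bases, differs from that pattern in the same way. In Prdx1 the ARE core 133 bases before the start contained the second TGANTCA match of that promoter, so the same bases satisfied both patterns. The Txnrd1 match stood before 1 of the 3 starts listed for that gene. An ARE core was present in 4 of the 8 genes and an AP-1 type element in 3, and 6 genes held at least 1 of them. Of all 32851 promoters 10.2% held the first, 6.75% the second and 16.1% either. These shares are per promoter, whereas the member counts are per gene, and the 8 genes had 10 promoters. The members were listed for their link to NRF2, so these counts are no test of it. Nqo1 and Slc7a11 held neither pattern in this window, which says only that these letters are not in it. Hmox1 and Gclc were not in the promoter table. A match is a run of letters and no evidence of binding.

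By position in GENCODE M21 (GRCm38), the genes are Nfe2l2 (ENSMUSG00000015839, chr2:75675513-75704641, minus strand), Srxn1 (ENSMUSG00000032802, chr2:152105516-152111376, plus strand), Hmox1 (ENSMUSG00000005413, chr8:75093621-75100589, plus strand), Nqo1 (ENSMUSG00000003849, chr8:107388225-107403206, minus strand) and Gclm (ENSMUSG00000028124, chr3:122245557-122270732, plus strand). The others are Gclc (ENSMUSG00000032350, chr9:77754535-77794485, plus strand), Txnrd1 (ENSMUSG00000020250, chr10:82833951-82897712, plus strand), Slc7a11 (ENSMUSG00000027737, chr3:49892526-50443614, minus strand), Prdx1 (ENSMUSG00000028691, chr4:116685544-116700822, plus strand) and Osgin1 (ENSMUSG00000074063, chr8:119434124-119446256, plus strand). Exons of Gclm overlap those of Gm17494 on the opposite strand and of the pseudogene Gm6061 on its own strand. Gm17494 is among the genes counted and Gm6061 is not. The counts of Gclm carry that uncertainty. No other member shared exon bases with another annotated gene, and genes lying within introns were not searched for.

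Progenitors had more mRNA of most of these genes than preadipocytes. Between preadipocytes and progenitors 9 of the 10 members passed the test (edgeR quasi-likelihood test with the mouse as a block, Benjamini-Hochberg adjusted p under 0.05 over all genes tested), 7 lower and 2 higher in preadipocytes, and Nqo1 did not pass. The comparison called 56.4% of all 13264 genes tested, 29.2% lower and 27.2% higher, so a call by itself was common here. The median log2 fold change was -0.92 over the 10 members and 0.0044 over all genes. Each member that passed moved the same way in each of the 3 mice. In simulated data the fit behind all class comparisons made more false calls than its threshold states, so its adjusted p-values are to be read as too small. Of the class comparisons, the simulation covered preadipocytes over progenitors alone.

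Nfe2l2 stood at 340, 365 and 377 CPM in progenitors of mouse 1, mouse 2 and mouse 3, at 135, 131 and 135 CPM in preadipocytes and at 153, 161 and 159 CPM in regulatory cells. The 3 gates did not overlap for Nfe2l2, and progenitors were far above the other two. The log2 fold change of preadipocytes over progenitors was -1.48 ± 0.061 (SE, n = 3 mice, edgeR adjusted p = 9.71e-10), and that of regulatory cells over progenitors was -1.20 ± 0.067 (edgeR adjusted p = 3.94e-08).

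Of the glutathione genes, Gclc encodes the catalytic subunit of glutamate-cysteine ligase, the rate-limiting enzyme of glutathione synthesis, Gclm its modifier subunit, and Slc7a11 the cystine importer that supplies cysteine. Gclc was at 121, 131 and 211 CPM in progenitors, against 53.7, 47.8 and 54.1 CPM in preadipocytes and 46.3, 63.8 and 57.4 CPM in regulatory cells. Progenitors were above both other gates in each mouse, and the log2 fold change of preadipocytes was -1.59 ± 0.13 (SE, edgeR adjusted p = 6.22e-07). Gclm was at 48.4, 46.0 and 77.3 CPM in progenitors and at 31.1, 33.2 and 38.5 CPM in preadipocytes, a log2 fold change of -0.76 ± 0.092 (edgeR adjusted p = 1.73e-05). The ranges of Gclm did not overlap between those gates, whereas the regulatory values (40.0, 35.2 and 47.5 CPM) overlapped both. Slc7a11 was scarce, with 109, 134 and 463 UMIs in all progenitors (2.03, 3.49 and 7.5 CPM) and 12, 27 and 14 UMIs in preadipocytes (0.652, 1.48 and 1.03 CPM). Its log2 fold change was -1.962 ± 0.28 (edgeR adjusted p = 7.03e-05).

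Of the thioredoxin genes, Srxn1 encodes sulfiredoxin, which repairs over-oxidised peroxiredoxins, Txnrd1 the cytosolic thioredoxin reductase, and Prdx1 an abundant peroxiredoxin. Srxn1 was at 145, 186 and 273 CPM in progenitors, 63.5, 90.5 and 93.3 CPM in preadipocytes and 61.8, 82.8 and 93.0 CPM in regulatory cells. Its progenitor values lay above all values of the other gates, by a log2 fold change of -1.32 ± 0.089 for preadipocytes (edgeR adjusted p = 9.11e-08). Txnrd1 was at 217, 160 and 310 CPM in progenitors and 174, 115 and 177 CPM in preadipocytes, so the ranges overlapped although each mouse was lower in preadipocytes (log2 fold change -0.59 ± 0.12, edgeR adjusted p = 0.00106). Prdx1 went the other way, from 429, 539 and 424 CPM in progenitors to 552, 617 and 510 CPM in preadipocytes and 612, 725 and 605 CPM in regulatory cells. Its change was small (log2 fold change 0.22 ± 0.060 in preadipocytes, edgeR adjusted p = 0.00762, and 0.48 ± 0.062 in regulatory cells, edgeR adjusted p = 5.52e-05).

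Hmox1 encodes heme oxygenase 1, which breaks down heme, Nqo1 a quinone reductase often used as a readout of NRF2, and Osgin1 an oxidative stress-induced growth inhibitor. Hmox1 was at 234, 389 and 723 CPM in progenitors and at 175, 183 and 250 CPM in preadipocytes. Mouse 3 was more than 3 times mouse 1 in progenitors, the ranges of the gates overlapped, and the log2 fold change was -1.07 ± 0.17 (edgeR adjusted p = 0.000143). Osgin1 rose in preadipocytes, from 4.15, 4.87 and 4.75 CPM to 8.86, 11.98 and 11.2 CPM, with no overlap (log2 fold change 1.16 ± 0.11, edgeR adjusted p = 2.00e-06). Nqo1 was nearly unread, with 102 to 107 UMIs per mouse in all progenitors (1.99, 2.68 and 1.65 CPM) and 19 to 59 in preadipocytes (3.21, 2.57 and 1.40 CPM). Nqo1 did not pass, being higher in preadipocytes in 1 mouse and lower in 2 (log2 fold change 0.14 ± 0.27, edgeR adjusted p = 0.678).

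**Figure D1:**
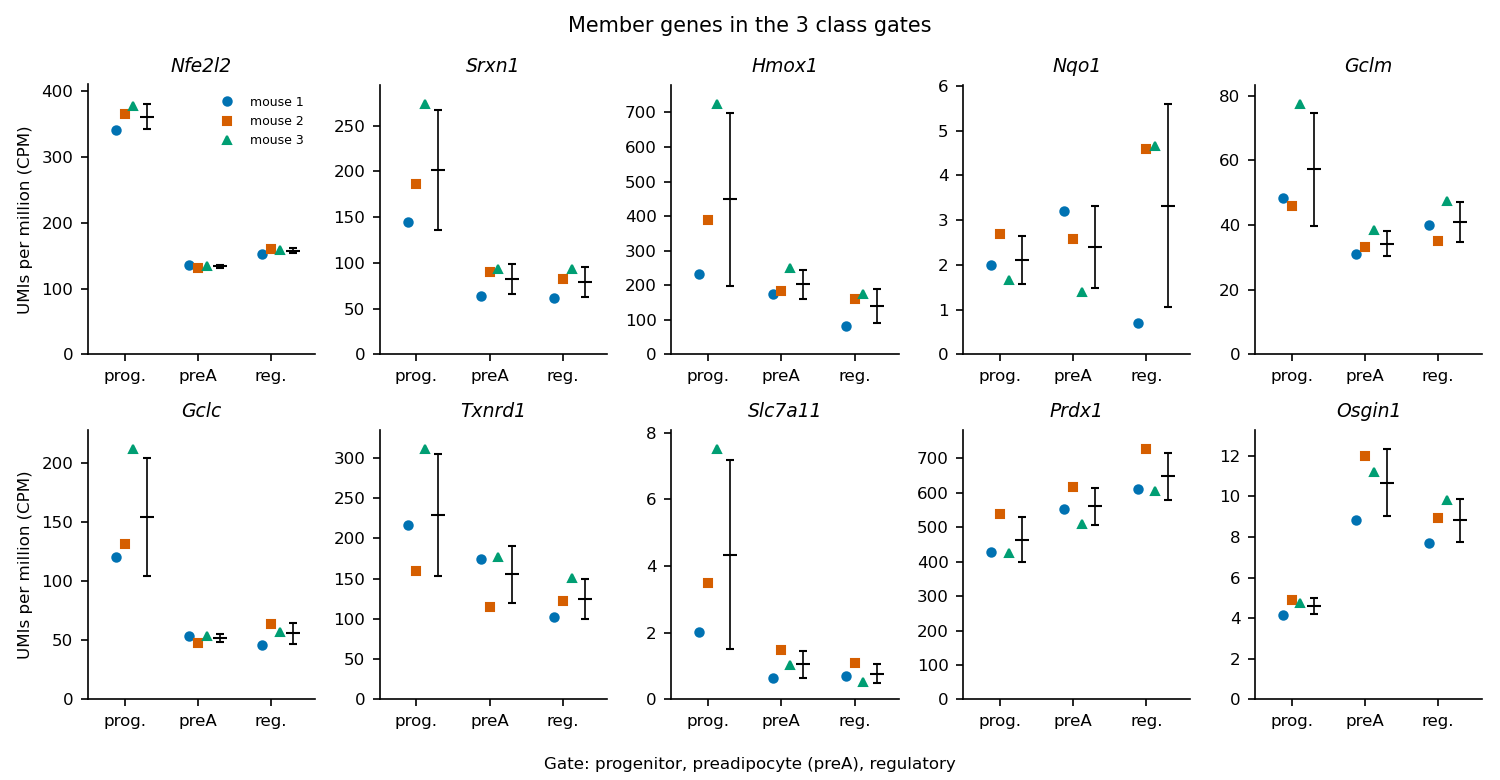
Levels of the 10 genes (y axis, CPM, from 0) in the progenitor, preadipocyte and regulatory gates (x axis), with 1 point per mouse and the mean ± SD (n = 3) as a black bar. Nfe2l2, Srxn1 and Gclc in progenitors lie above every value of the other gates, Osgin1 lies below them, and Nqo1 and Slc7a11 stay under 10 CPM.

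Regulatory cells were closer to preadipocytes than to progenitors in most of these genes. Against progenitors 9 of the 10 members passed, 7 lower and 2 higher, where 43.0% of all genes passed (24.0% lower and 19.0% higher). Of these calls, that of Slc7a11 rests on 1, 4 and 1 UMIs in regulatory cells of mouse 1, mouse 2 and mouse 3. That of Osgin1 rests on 11, 33 and 19 UMIs there. Hmox1 was at 82.8, 160 and 174 CPM in regulatory cells, below every progenitor value (log2 fold change -1.59 ± 0.19, edgeR adjusted p = 2.45e-05). Against preadipocytes 2 of the 10 passed, both higher in regulatory cells, where 25.7% of all genes passed (12.3% higher and 13.4% lower). They were Nfe2l2 (log2 fold change 0.29 ± 0.068, edgeR adjusted p = 0.00818) and Prdx1 (0.26 ± 0.062, edgeR adjusted p = 0.00880), each higher in 3 of 3 mice. Without mouse 2 neither of these 2 passed (edgeR adjusted p = 0.0866 and 0.0675), nor without mouse 3 (0.0509 and 0.0718). Regulatory cells were fewer and shallower (median 4945, 10104.5 and 4575 UMIs per cell, against 7329, 12052 and 6690 in progenitors). With every cell thinned to 3000 UMIs and gated again, 147, 243 and 227 regulatory cells were left. There Gclm and Slc7a11 no longer passed against progenitors (edgeR adjusted p = 0.0736 and 0.358), where 3465 of all 11090 genes did.

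The classes also differed in how many of their cells were activated. Activated cells made up 49.3, 60.0 and 62.8% of progenitors, 5.58, 13.5 and 13.3% of preadipocytes, and 5.93, 14.1 and 14.6% of regulatory cells. When only resting cells of each gate were summed, a comparison added after the data were seen, 5 of the 10 members passed between preadipocytes and progenitors. This is close to the share over all genes, 48.0% of 12430. Nfe2l2 (log2 fold change -1.09, edgeR adjusted p = 9.92e-09), Gclc (-0.79, 0.000305) and Srxn1 (-0.54, 0.0110) stayed lower in resting preadipocytes, and Prdx1 (0.34, 0.00117) and Osgin1 (0.91, 0.000107) stayed higher. Hmox1 and Txnrd1 changed sign, to 0.21 ± 0.20 and 0.054 ± 0.14, and neither passed (edgeR adjusted p = 0.428 and 0.785). Gclm (-0.18, edgeR adjusted p = 0.205) and Slc7a11 (-1.13, 0.0693) no longer passed. Between resting regulatory cells and resting progenitors, where 32.6% of all genes passed, Nfe2l2 (-0.75, edgeR adjusted p = 4.35e-06) and Prdx1 (0.67, 5.95e-06) were the 2 members left. Gclm changed sign there, to 0.15 ± 0.16 (edgeR adjusted p = 0.541). Between resting regulatory cells and resting preadipocytes, where 22.2% of all genes passed, the members that passed were again Nfe2l2 (0.34, edgeR adjusted p = 0.00711) and Prdx1 (0.33, 0.00418). In resting cells Nfe2l2 stood at 268, 256 and 290 CPM in progenitors, 131, 122 and 123 CPM in preadipocytes and 152, 144 and 163 CPM in regulatory cells, without overlap. Calls over all genes between preadipocytes and progenitors also fell, from 7478 of 13264 to 5966 of 12430. The part of activated cells in the class differences was not tested.

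**Figure D2:**
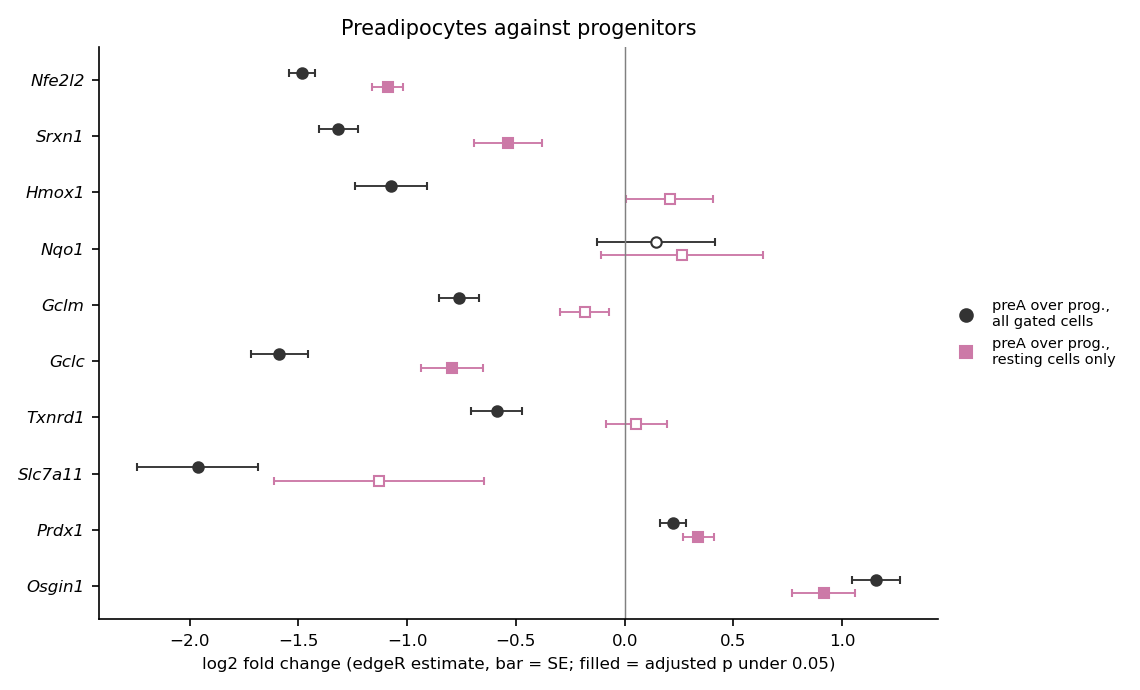
Log2 fold change of preadipocytes over progenitors (x axis, edgeR estimate with its SE) for each gene (y axis), over all gated cells (circles) and over resting cells alone (squares), with filled symbols where the adjusted p was under 0.05. Hmox1 moves from -1.07 to 0.21 and Txnrd1 from -0.59 to 0.05, while Nfe2l2 moves from -1.48 to -1.09 and stays below 0.

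Within the progenitor gate 8 of the 10 members rose in activated cells, each in 3 of 3 mice. There were 3646, 1901 and 5821 activated and 2457, 889 and 1992 resting progenitors, and cells with 1 UMI were left out of the test. Between them 9 of the 10 members passed, 8 higher and 1 lower (Osgin1), where 19.2% of the 12670 genes tested passed (11.0% higher and 8.27% lower). The median log2 fold change was 1.06 over the members and 0.0017 over all genes. Nqo1 was the member that did not pass. These calls rest on comparing cells within a mouse: without the mouse as a block 0 of the 10 passed in edgeR (adjusted p 0.129 to 0.955), 8 had an unadjusted p under 0.05, and DESeq2 with the block called 7. Over all 12670 genes 12 passed in edgeR without the block and 1380 had an unadjusted p under 0.05. DESeq2 with the block called 1219 of them.

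Srxn1 rose from 77.0, 53.7 and 138 CPM in resting to 193, 257 and 329 CPM in activated progenitors of mouse 1, mouse 2 and mouse 3. This is 2.50-, 4.79- and 2.38-fold, with no overlap between the groups (log2 fold change 1.70 ± 0.19, SE, n = 3 mice, edgeR adjusted p = 0.00128). Hmox1 rose 2.18-, 4.79- and 2.29-fold, from 136, 113 and 375 CPM to 296, 541 and 861 CPM (log2 fold change 1.63 ± 0.21, edgeR adjusted p = 0.00244). Resting cells of mouse 3 had more Hmox1 than activated cells of mouse 1, so the ranges overlapped across mice, although each mouse was higher in activated cells. Txnrd1 rose from 153, 65.8 and 191 CPM to 258, 208 and 355 CPM (1.19 ± 0.17, edgeR adjusted p = 0.00299).

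The glutathione genes moved the same way. Gclc rose from 74.8, 61.1 and 126 CPM to 151, 169 and 246 CPM, without overlap (log2 fold change 1.25 ± 0.11, edgeR adjusted p = 0.000615). Gclm rose from 35.7, 27.5 and 50.2 CPM to 57.5, 54.9 and 87.7 CPM, also without overlap (0.93 ± 0.083, edgeR adjusted p = 0.00062). Slc7a11 rose from 1.21, 0.704 and 2.99 CPM to 2.71, 5.19 and 9.41 CPM (1.86 ± 0.25, edgeR adjusted p = 0.00268), and this rests on 19, 7 and 33 UMIs in resting and 79, 124 and 392 UMIs in activated cells.

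Nfe2l2 rose from 268, 256 and 290 CPM to 389, 424 and 415 CPM (log2 fold change 0.71 ± 0.072, edgeR adjusted p = 0.000866), and the groups did not overlap. Prdx1 was nearly level, at 427, 523 and 402 CPM against 434, 547 and 432 CPM, although it passed the test by a small margin (0.18 ± 0.053, edgeR adjusted p = 0.0472). With sums scaled by their totals alone its log2 fold change was 0.065 (edgeR adjusted p = 0.341), and it did not pass without mouse 1 (0.0648) or without mouse 3 (0.129). Osgin1 fell from 5.93, 6.43 and 5.52 CPM to 3.12, 4.01 and 4.44 CPM (-0.52 ± 0.15, edgeR adjusted p = 0.0466). Osgin1 did not pass without mouse 1 (log2 fold change -0.34, edgeR adjusted p = 0.272) or without mouse 2 (-0.54, 0.0508). Nqo1 stood at 1.98, 2.71 and 1.54 CPM in resting and 1.99, 2.68 and 1.78 CPM in activated cells (0.17 ± 0.19, edgeR adjusted p = 0.570).

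The levels followed the number of Nr4a3, Fosl1 and Nptx2 UMIs. In cells with 1 UMI Srxn1 was at 109, 100 and 182 CPM, in cells with 2 at 126, 124 and 217 CPM, and in cells with 3 or more at 210, 275 and 353 CPM, so the order was the same in each mouse. Hmox1 took the values 202, 191 and 510, then 221, 319 and 655, then 315, 571 and 906 CPM. Gclc went from 101, 84.9 and 158 CPM at 1 UMI to 159, 177 and 258 CPM at 3 or more, and Txnrd1 from 197, 112 and 251 CPM to 270, 217 and 373 CPM. These levels are a description, since cells with more UMIs of the 3 genes also had more UMIs in all.

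**Figure D3:**
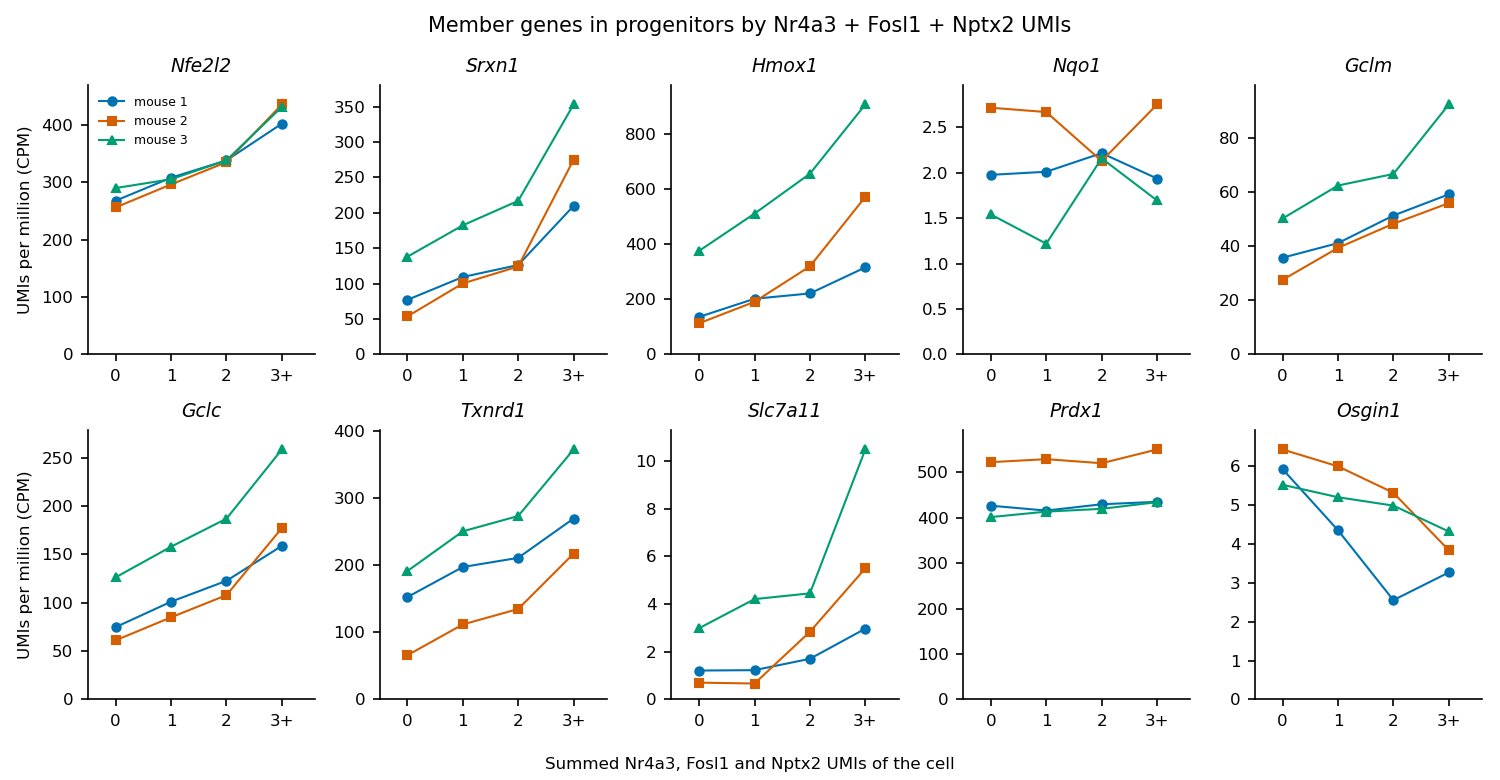
Levels of the 10 genes (y axis, CPM, from 0) in progenitors with 0, 1, 2 and 3 or more UMIs of Nr4a3, Fosl1 and Nptx2 together (x axis), with 1 line per mouse. Nfe2l2, Srxn1, Hmox1, Gclm, Gclc and Txnrd1 climb at each step in each mouse, Prdx1 and Nqo1 show no such climb, and Osgin1 ends lower than it begins.

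Depth and other measures moved with this split. Activated progenitors had median depths of 7690.5, 12293 and 6943 UMIs against 6779, 11610 and 5966 in resting ones, and median mitochondrial shares of 1.23, 1.89 and 1.44% against 1.38, 2.01 and 1.64%. With each cell thinned to 3000 UMIs and gated again there were 2132, 1136 and 3858 activated and 3093, 1440 and 2861 resting progenitors. Of the members 8 passed there, where 1469 of all 11341 genes did, and Osgin1 was the 1 lost. Of a list of 24 genes induced by tissue dissociation 4 were higher (Junb, Ier3, Nr4a1 and Klf4) and 12 lower. The list summed to 25698, 25765 and 22826 CPM in activated against 32687, 28027 and 31267 CPM in resting cells. The 12 leukocyte markers summed to at most 4.85 CPM in activated and 16.5 CPM in resting cells, with Cd3e at 0 in both. The 5 erythroid markers summed to 39.1, 5.23 and 24.4 CPM in activated and 17.2, 5.93 and 5.25 CPM in resting cells, higher in mouse 1 and mouse 3 and lower in mouse 2, and 3 of the 4 tested were called higher. Class markers moved too. The 7 preadipocyte markers outside the gate summed to 525, 474 and 429 CPM in activated and 714, 622 and 596 CPM in resting progenitors, and of all 9 on that list 7 were lower. Of 7 regulatory cell markers 5 were lower, and of 8 progenitor markers 5 were higher and 1 lower. The part of these measures in the members' differences was not tested. The scaling of the sums matters for small changes. Scaling by totals alone moved the median of all genes by -0.11 on the log2 scale and the share of calls that were higher from 57.0% to 27.7%, while Nfe2l2, Srxn1, Hmox1, Gclm, Gclc, Txnrd1 and Slc7a11 passed as higher under both.

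Of the genes that control NRF2, 7 of 13 rose and 1 fell in activated progenitors, where 11.0% of all genes rose and 8.27% fell. Bach1, the repressor at AREs, rose from 130, 58.5 and 153 CPM to 226, 168 and 245 CPM (log2 fold change 1.09 ± 0.16, edgeR adjusted p = 0.00333). Of the small MAF proteins, Maff rose from 102, 76.4 and 152 CPM to 183, 273 and 243 CPM (1.22 ± 0.21, edgeR adjusted p = 0.00636), and Mafk rose too (0.73, edgeR adjusted p = 0.0106). Mafg, Bach2, Cul3 and Sqstm1 also rose. Keap1, the sensor, fell from 35.5, 47.3 and 32.6 CPM to 31.2, 26.8 and 24.8 CPM (-0.34 ± 0.093, edgeR adjusted p = 0.0375).

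Between activated and resting progenitors 19.2% of all genes tested passed, 11.0% higher and 8.27% lower. Beyond the 10 members, 6 of 29 other NRF2 targets tested rose and 23 did not pass. Among the 6 were Ugdh, which makes UDP-glucuronate (from 2752, 1429 and 3395 CPM to 4168, 3419 and 4724 CPM, log2 fold change 0.89, edgeR adjusted p = 0.00564), Pgd of the pentose phosphate pathway (0.84, 0.000337) and Slc3a2, the partner chain of the SLC7A11 transporter (0.82, 0.00257). The other 3 were Me1 and the ferritin chains Ftl1 and Fth1. The median log2 fold change of the 29 was 0.091. Of 16 antioxidant enzymes not known mainly as NRF2 targets 4 rose, among them the mitochondrial superoxide dismutase Sod2 (0.64, edgeR adjusted p = 0.00280) and Gpx4 (0.24, 0.0122), with a median over the 16 of -0.040. Of 14 targets of ATF4, the stress factor that shares Slc7a11 with NRF2, 4 rose and 2 fell. Cebpb rose (1.14, edgeR adjusted p = 0.00125), as did the cationic amino acid transporter Slc7a1 (0.89, 0.00369) and Atf4 itself (0.36, 0.0491), while Ddit4 (-1.38, 0.000507) and Atf3 (-0.69, 0.00298) fell.

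**Figure D4:**
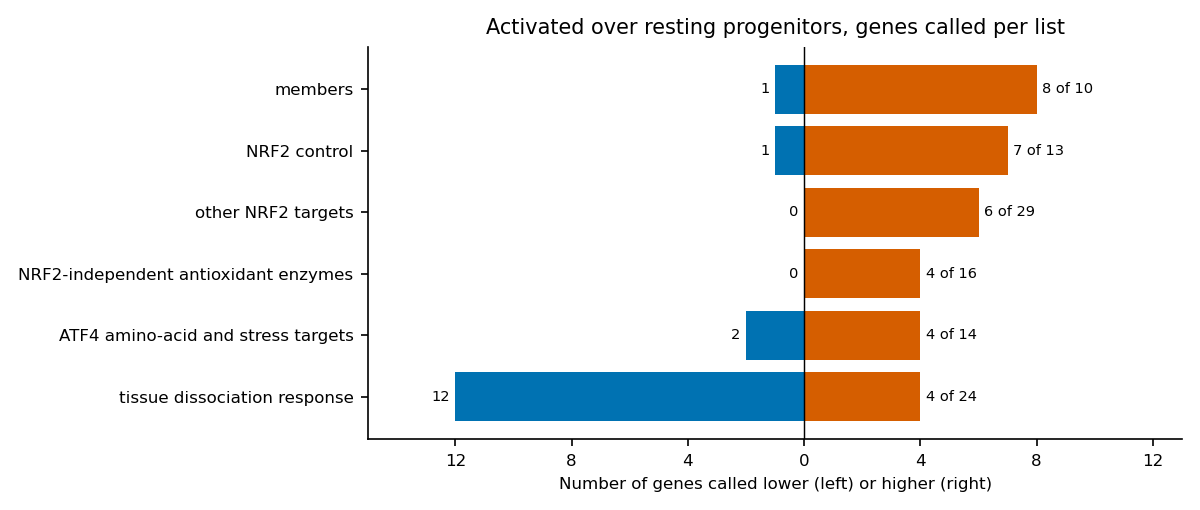
Number of genes of each list that were lower (left, blue) or higher (right, orange) in activated than in resting progenitors, at an adjusted p under 0.05, with the number tested beside the bar. More calls lie to the right for members (8 of 10 higher, 1 lower), NRF2 control genes (7 of 13, 1 lower) and other NRF2 targets (6 of 29, 0 lower). The same holds for NRF2-independent antioxidant enzymes (4 of 16, 0 lower) and ATF4 targets (4 of 14, 2 lower). The dissociation list has 12 lower and 4 higher. Over all genes tested 11.0% were higher and 8.27% lower.

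The same lists were counted across the classes. In preadipocytes against progenitors, where 27.2% of all genes were higher and 29.2% lower, 2 of 13 control genes were higher and 8 lower, with Bach1 at -0.67 (edgeR adjusted p = 3.69e-05) and Maff at -0.73 (2.89e-05). Of the 29 other targets 6 were higher and 12 lower. Ugdh fell from 3632, 2747 and 4366 CPM in progenitors to 930, 748 and 1088 CPM in preadipocytes (log2 fold change -2.005 ± 0.070, edgeR adjusted p = 3.16e-10), Pgd fell (-1.76, 2.76e-08), and Mgst1, a microsomal glutathione transferase, rose (0.73, 1.98e-06). Of the 16 other antioxidant enzymes 6 were higher and 3 lower, with catalase (Cat) at 35.8, 38.1 and 32.2 CPM in progenitors and 76.6, 79.9 and 61.5 CPM in preadipocytes (0.98 ± 0.061, edgeR adjusted p = 4.51e-08). Of the 14 ATF4 targets 5 were higher and 4 lower. In regulatory cells against progenitors, where 19.0% of all genes were higher and 24.0% lower, the counts were 1 higher and 9 lower of 13 control genes, 5 and 11 of 29 other targets, 7 and 3 of 16 enzymes and 2 and 5 of 14 ATF4 targets. Ferritin heavy chain (Fth1) was at 14148, 15007 and 13546 CPM in regulatory cells, against 7641, 9427 and 7735 CPM in progenitors (0.79 ± 0.076, edgeR adjusted p = 4.30e-06), and the peroxiredoxin Prdx4 of the endoplasmic reticulum was higher too (1.25, 2.43e-06). The dissociation list had 17 of 24 higher and 4 lower in preadipocytes than in progenitors, and 17 higher and 2 lower in regulatory cells. Nr4a1 and Klf4 were among the lower ones in both comparisons. The part of dissociation in the class differences was not tested.

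Preadipocytes held few activated cells (127, 188 and 252, against 1827, 968 and 1236 resting), and 4 of the 10 members rose in them while 6 did not pass, where 11.7% of 12792 genes passed (7.23% higher and 4.43% lower). Srxn1 went from 53.1, 53.1 and 66.6 CPM to 158, 221 and 186 CPM, without overlap (log2 fold change 1.82 ± 0.23, edgeR adjusted p = 0.000493). Txnrd1 went from 161, 86.3 and 154 CPM to 277, 195 and 267 CPM (1.00 ± 0.18, edgeR adjusted p = 0.00376). Nfe2l2 (0.57, edgeR adjusted p = 0.00114) and Gclm (0.61, 0.0232) were the other 2, and Gclm did not pass without mouse 1 (0.0501) or without mouse 3 (0.0947). With cells thinned to 3000 UMIs and gated again, 27, 26 and 73 activated preadipocytes were left, and Srxn1 alone of the 9 members tested passed. Over all genes 216 of 10935 passed there. Without the mouse as a block, and without thinning, Srxn1 alone of the 10 passed (edgeR adjusted p = 0.0354), where 68 of all 12792 genes did. In the small sums before thinning 8 mural markers reached 259 CPM in activated cells of mouse 1, against 85.4 CPM in its resting cells, and 12 leukocyte markers 42.4 CPM in activated cells of mouse 3, against 4.03 CPM. Of 8 progenitor markers 5 were higher in activated preadipocytes, and of 9 preadipocyte markers 4 were lower. Their part was not tested. Of all calls 62.0% were higher, against 42.5% with scaling by totals alone and 73.0% with RLE factors.

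Hmox1 behaved differently in the 2 gates. In preadipocytes it was at 183, 198 and 248 CPM in resting and 125, 131 and 279 CPM in activated cells, lower in 2 mice and higher in the other, and did not pass (log2 fold change -0.28 ± 0.25, edgeR adjusted p = 0.506). The activation difference in preadipocytes minus that in progenitors was -1.92 ± 0.33 (edgeR adjusted p = 0.0246), negative in 3 of 3 mice, and Hmox1 was the 1 member of 10 to pass this test, where 0.641% of all genes passed (0.227% lower and 0.414% higher). It did not pass without mouse 1 (-1.959, edgeR adjusted p = 0.0515), without mouse 2 (-1.38, 0.0954) or without mouse 3 (-2.34, 0.0579). For Gclc the difference of the differences was -0.89 ± 0.23 (edgeR adjusted p = 0.116), and for Srxn1 0.14 ± 0.31 (edgeR adjusted p = 0.916). The class comparisons and the activation comparisons draw on the same progenitors, so they are not independent of each other.

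The study divides ICAM1+ preadipocytes by CD44, through clusters and by surface protein. Here a different split, by UMIs, was made of the preadipocyte gate, which a cell can enter without an Icam1 UMI. Cells with at least 2 UMIs of Cd44 (294, 312 and 324 cells) are called CD44high and those with 0 (1557, 756 and 1157 cells) CD44low. CD44high preadipocytes had more Srxn1, Txnrd1, Nfe2l2 and Gclc and less Osgin1, 5 of the 9 members tested, where 18.1% of 11287 genes passed (12.2% higher and 5.86% lower). Slc7a11, with 0 to 14 UMIs per sum, was removed by the low-count filter. Srxn1 was at 100.2, 147 and 150 CPM in CD44high and 52.0, 58.4 and 75.2 CPM in CD44low cells, without overlap (log2 fold change 1.20 ± 0.089, edgeR adjusted p = 6.28e-06). Txnrd1 was at 260, 176 and 254 against 157, 79.7 and 147 CPM (0.98 ± 0.087, edgeR adjusted p = 1.87e-05). Nfe2l2 was at 139, 169 and 172 against 132, 113 and 122 CPM (0.49 ± 0.094, edgeR adjusted p = 0.00389), and did not pass without mouse 3 (0.0502).

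The other calls of this split were less firm. Gclc was higher in 2 mice and lower in mouse 3 (68.6, 52.3 and 47.7 against 47.4, 40.0 and 54.2 CPM, log2 fold change 0.37, edgeR adjusted p = 0.0486), and without mouse 1 or mouse 2 it did not pass (0.113 and 0.241). Osgin1 (-0.65, edgeR adjusted p = 0.0384) did not pass without mouse 2 (0.0663) or mouse 3 (0.158). Its call rests on 17, 37 and 12 UMIs in CD44high cells. Gclm did not pass with all mice (0.39, edgeR adjusted p = 0.0594) but passed without mouse 1 (0.50, 0.000516), and without mouse 3 its log2 fold change was 0.14. Hmox1 was level (151, 177 and 249 against 184, 187 and 250 CPM, -0.020 ± 0.073, edgeR adjusted p = 0.883). Resting cells were 203 of 294, 156 of 312 and 143 of 324 CD44high cells, against 1305 of 1557, 595 of 756 and 837 of 1157 CD44low cells. CD44high cells were also deeper (median 8861.5, 13729 and 7578.5 UMIs, against 7863, 12606.5 and 7118). Among resting preadipocytes alone 3 members passed, Srxn1 (1.03, edgeR adjusted p = 2.62e-05), Txnrd1 (0.92, 2.11e-05) and Nfe2l2 (0.46, 0.0104), where 9.72% of 10636 genes did. Thinned and gated again, the CD44high cells numbered 41, 27 and 83, and Srxn1 alone of the 7 members tested passed. Over all genes 109 of 7822 passed there. Without the mouse as a block 0 of 9 passed in edgeR, with 4 at an unadjusted p under 0.05, against 3 in DESeq2 with the block. Over all 11287 genes 2 passed in edgeR without the block and 1208 had an unadjusted p under 0.05. DESeq2 with the block called 751 of them. Of all calls 67.6% were higher, and 42.2% with scaling by totals alone. The 7 preadipocyte markers summed to 4556, 3669 and 3959 CPM in CD44high and to 5625, 5017 and 5577 CPM in CD44low cells. The 6 progenitor markers outside the gate summed to 1074, 693 and 1132 CPM in CD44high and 805, 515 and 864 CPM in CD44low cells, and 6 of the 7 tested from the full list were higher (Dpp4, Cd55, Anxa3, Wnt2, Sema3c and Fbn1). Over all gated cells progenitors themselves had more Srxn1, Txnrd1, Nfe2l2 and Gclc than preadipocytes. Among resting cells this held for Srxn1, Nfe2l2 and Gclc. Txnrd1 did not pass there (log2 fold change of preadipocytes 0.054, edgeR adjusted p = 0.785). In CD44high cells the dissociation list had 3 genes higher and 11 lower. The part of these markers, of depth and of the share of resting cells was not tested.

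Bach1 (log2 fold change 1.102, edgeR adjusted p = 4.07e-05), Maff (0.72, 0.00772) and Cul3 (0.44, 0.00133) were among 4 of 13 control genes higher in CD44high preadipocytes, and Keap1 (-0.57, 0.00343) was the 1 that was lower. Of the 29 other targets 6 were higher, among them Ugdh (1.27, edgeR adjusted p = 1.65e-06) and thioredoxin, Txn1 (0.52, 6.14e-05), and 1 was lower. Of the 16 other enzymes Sod2 alone passed, at 179, 213 and 274 against 121, 112 and 157 CPM (0.86 ± 0.080, edgeR adjusted p = 2.42e-05). The ATF4 targets had 4 higher and 4 lower of 13 tested. Over all genes tested in this split 12.2% were higher and 5.86% lower.

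**Figure D5:**
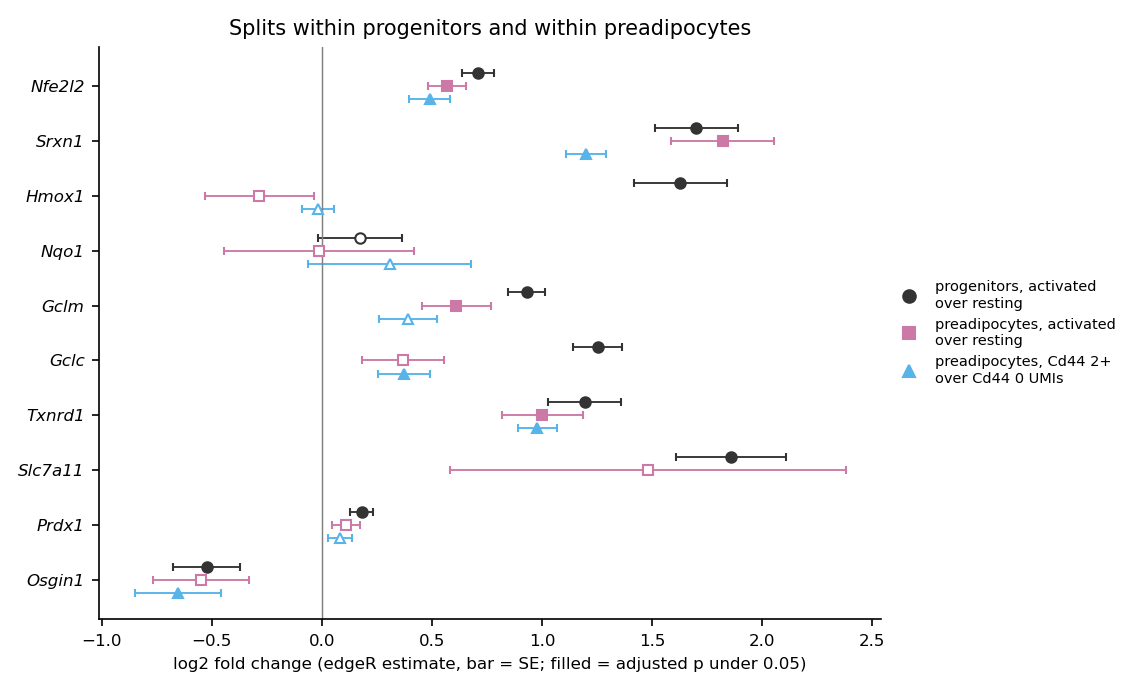
Log2 fold change (x axis, edgeR estimate with its SE) of each gene (y axis) for activated over resting progenitors (circles), activated over resting preadipocytes (squares) and CD44high over CD44low preadipocytes (triangles), with filled symbols where the adjusted p was under 0.05. Srxn1 lies between 1.20 and 1.82 in all 3 splits, and Hmox1 is at 1.63 in progenitors but at -0.28 and -0.02 in preadipocytes.

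Across the 15 sums of resting, 1-UMI and activated progenitors, preadipocytes and regulatory cells, centred per mouse on the log2(CPM + 1) scale, the members did not form a single block. Against the mean of the other members Pearson's r was 0.97 for Srxn1, 0.95 for Hmox1, 0.93 for Txnrd1, 0.91 for Gclc, 0.90 for Gclm, 0.89 for Slc7a11 and 0.71 for Nfe2l2. It was -0.15 for Nqo1, -0.54 for Prdx1 and -0.84 for Osgin1. Among 2807 other genes with a mean of at least 50 CPM the 5 most like the mean of the members were Etf1 (0.96), Smarca5, Eprs, Eif1 and Mat2a (each 0.95). The sums share libraries and gates, so these coefficients are descriptions only.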

How the data were processed

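The deposited values are UMI counts per gene and cell, made by the authors with Cell Ranger on mm10 (GRCm38). The matrix headers give Cell Ranger 4.0.0 and the submitters' processing notes 2.1.1, and the published methods name another version, so which one made the counts is open. Cells in more than 1 class gate (49, 119 and 96) were left out, and doublets were not called but the 5% deepest cells of each library were left out as an alternative.

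Counts were summed per mouse and gate and tested with edgeR 4.0.16 in R 4.3.3 (filterByExpr, TMM, glmQLFit and glmQLFTest with the mouse as a block, Benjamini-Hochberg over all genes tested, threshold 0.05). The SE printed with a log2 fold change was derived from the test. It is the absolute log2 fold change divided by the square root of the F statistic, with the spread estimated over all sums of the fit. The 3 classes share 1 fit of 9 sums, activation in progenitors a fit of 6, activation in both gates 1 of 12, and the CD44 split 1 of 6. Sums of a mouse come from the same library, which is the pairing, and their deviations from the gate means correlated at 0.153 to 0.427 in mouse 1, 0.383 to 0.676 in mouse 2 and 0.245 to 0.522 in mouse 3 over 13264 genes. The scripts were tested on simulated data, in which the fit of the classes made more false calls than its threshold states. A single comparison of each fit was simulated, and the difference of activation between the gates was not among them. With the mouse as a block, the p-values measure how far the difference between gates varied among these 3 libraries. They do not measure the spread of levels between libraries.

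The named genes are the 10 members and, from 4 pathway lists, up to 3 rises and 3 falls per comparison, the largest that passed, provided that the mice shared the sign and that a gate averaged 20 CPM or more. Other names spell out a short count and were chosen after their values were seen. The members and lists were chosen with earlier results of these data known. Of the gene identifiers 32158 were found in GENCODE M21. Alternatives were RLE factors, totals alone, DESeq2 1.42.0, no low-count filter, no block, under 10% mitochondrial UMIs, gate limits raised by 1 UMI, cells in several gates kept, cells thinned to 3000 UMIs (1227, 299 and 1881 shallower cells left out) and each mouse left out. The gates were applied again to the thinned counts, so the thinned groups hold partly other cells. A call lost there is no check of depth in the same cells. Resting cells only was added after seeing the data.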

Additional observations from a re-analysis of the deposited data

Results flagged for a closer look

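Hmox1 was the 1 member to pass the test of whether its activation difference differed between the gates. The log2 difference between activated and resting cells in preadipocytes minus that in progenitors was -1.92 (SE 0.33, edgeR adjusted p = 0.0246, negative in 3 of 3 mice). The per-mouse values were -1.67, -2.85 and -1.03. The adjusted p lay between 0.0515 and 0.0954 when a mouse was left out, and the value rests on 132, 361 and 541 Hmox1 UMIs in activated preadipocytes of mouse 1, mouse 2 and mouse 3. Without the mouse as a block Hmox1 did not pass. Gclm, Gclc, Slc7a11 and Osgin1 were also negative in 3 of 3 mice and did not pass (edgeR adjusted p = 0.552, 0.116, 0.930 and 0.990).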

How the results depend on the processing

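Of the members' values under the alternatives 809 kept their direction and their side of the threshold, 74 lost a call, 12 gained one, 34 uncalled values changed sign and 3 called values changed sign. Those 3, in resting cells only, were Hmox1 (0.21) and Txnrd1 (0.0535) for preadipocytes over progenitors and Gclm (0.15) for regulatory cells over progenitors. There the members called went from 9 to 5, from 9 to 2 and, for CD44, from 5 to 3. With cells thinned to 3000 UMIs 1 member was called for regulatory cells over preadipocytes (1858 of all 11090 genes), 1 for activation in preadipocytes (216 of 10935) and 1 for CD44 (109 of 7822). Raised gate limits left 1 for regulatory cells over preadipocytes, where 2864 of all 13158 genes passed, and DESeq2 left 3 for CD44 (751 of 11287). No low-count filter gave 4 for regulatory cells over preadipocytes (3960 of 21653) and 2 for the difference of activation between the gates (530 of 21210). Without the replicate block the members called in edgeR were 7 for preadipocytes and 6 for regulatory cells over progenitors, 0 for regulatory cells over preadipocytes (1 at an unadjusted p under 0.05, and 2 called by DESeq2 with the block), 0 for activation in progenitors (8 unadjusted, DESeq2 7), 1 for activation in preadipocytes, 0 for the difference of activation (2 unadjusted, DESeq2 1) and 0 for CD44 (4 unadjusted, DESeq2 3). Leaving out 1 mouse gave 9 to 9 members for preadipocytes over progenitors, 9 to 10 for regulatory cells over progenitors, 0 to 3 for regulatory cells over preadipocytes, 7 to 8 for activation in progenitors, 3 to 4 in preadipocytes, 0 to 0 for the difference (2 unadjusted each time) and 3 to 5 for CD44. Over all 13102 to 13430 genes tested, these class fits called 6122 to 6631, 4178 to 4798 and 2057 to 2804, in that order. Activation gave 1561 to 2610 of 12587 to 12934 genes in progenitors and 568 to 1022 of 12669 to 13106 in preadipocytes. The difference gave 4 to 59 of 12669 to 13106, and CD44 gave 1061 to 2236 of 11104 to 11593. Over all genes, calls moved by more than 1.5 times as follows. For preadipocytes over progenitors 7478 became 4001 without the block. For regulatory cells over progenitors 5698 became 3135 without the block and 3465 thinned. For regulatory cells over preadipocytes 3408 became 1535 without the block, 1858 thinned and 2057 without mouse 2. For activation in progenitors 2438 became 12 without the block, 1469 thinned, 1219 in DESeq2 and 1561 without mouse 1. For activation in preadipocytes 1492 became 68 without the block, 216 thinned, 579 without mouse 2 and 568 without mouse 3. For the difference of activation 82 became 1 without the block, 40 thinned, 129 with totals alone, 530 without the filter, 207 in DESeq2, 16 without mouse 1 and 4 without mouse 3. For CD44 2040 became 2 without the block, 109 thinned, 751 in DESeq2, 1061 without mouse 2, 1220 without mouse 3 and 1034 in resting cells. The share of the difference calls that were higher was 64.6%, and 76.4% with RLE factors. The cause of these changes was not tested. Few UMIs limit Nqo1 and Slc7a11, and Osgin1 in regulatory cells, in CD44high preadipocytes and in activated preadipocytes (5, 20 and 18 UMIs in the last).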
